A study of Trametes versicolor with 17 samples.

Results

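This account covers the 3-day response of the white-rot fungus Trametes versicolor to the aqueous phase from salad dressing waste (SD), measured as mRNA in 3 SD libraries and 3 control libraries out of the 17 libraries of the study. The members are all 14296 gene models of the count table, of which 10838 passed the filter on low counts and were tested. By its title, the study looks for stress-responsive genes shared across such waters, for use in raising tolerance. An aqueous phase is the water fraction, rich in dissolved organics, that remains when wet waste is turned into oil under heat and pressure by hydrothermal liquefaction. All groups are mycelial pellets labelled with the genotype ASM 8036, described as wild type, and shaken at 135 rpm and 28 °C in 2% malt extract medium. Controls had the medium alone for 72 h, and SD pellets had the same medium with 5% SD for 72 h. For comparison, the food waste (FW) and algal biomass (AB) groups held 3 libraries each, at 5% and 72 h as well. One strain was used throughout, and the composition of the phases is not given in the labels. A list of markers that define mycelium could not be formed from the gene names at hand.

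White-rot fungi break down lignin with secreted enzymes. Laccases are copper enzymes that oxidise phenols with oxygen. Manganese peroxidases (MnP), lignin peroxidases (LiP) and versatile peroxidases (VP) use hydrogen peroxide to oxidise Mn(II), non-phenolic lignin units, or both kinds of substrate. Dye-decolorising peroxidases (DyP) and heme-thiolate peroxidases (HTP) are further heme enzymes with broad substrates, and such enzymes are studied in fungi of this kind for the removal of aromatic pollutants. Of the gene models 42 carry a symbol, nearly all for these families, and the others are named here by locus tag, or by the number of the model where no tag matched.

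The 6 control and SD libraries held between 15459249 and 18235907 counts each. Levels are given as counts per 1000000 (CPM), and 3 counts in a library correspond to at most 0.199 CPM. Spearman correlations of gene levels were 0.982 to 0.991 within the control and SD groups and 0.955 to 0.975 between them. Replicate 2 of each group stood apart for a few genes. In SD replicate 2, 20 genes were at least 4-fold above both other SD libraries, and in control replicate 2 11 genes were, against none in the other control and SD libraries. Of these genes 6 were high in replicate 2 of both groups, among them the laccase genes TvLac1 and TvLac3. Nothing in the labels ties equal replicate numbers to a shared culture or day. Of the 20 genes of SD replicate 2, LiP2 and TRAVEDRAFT_50182 were called between SD and control, and both are given with and without that library. Of the 11 genes of control replicate 2, TRAVEDRAFT_60827 was called (log2 fold change -2.51, adjusted p = 0.0395 by edgeR's quasi-likelihood test). It had 10.8, 66.1 and 7.54 CPM in the controls and 1.59, 10.6 and 2.52 CPM under SD. Of all tested genes 21.1% were called.

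Between SD and control 2291 of 10838 tested genes were called, 1111 higher and 1180 lower (edgeR's quasi-likelihood test, adjusted p at most 0.05). These are 21.1% of the tested genes, 10.3% higher and 10.9% lower. Most changes were small: the median log2 fold change was 0.93 among the genes that rose and -0.76 among those that fell. Of the tested genes 7.56% were called with at least a 2-fold change, 483 higher (4.46%) and 336 lower (3.1%), and 21 and 19 genes changed at least 8-fold. The SD and control libraries did not overlap for 2192 of the called genes, against 3886 (35.9%) of all tested genes. In a bulk pellet, fewer hyphae of one kind and less RNA per hypha cannot be told apart. Without control replicate 3 the count of called genes was 1361.

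**Figure D1:**
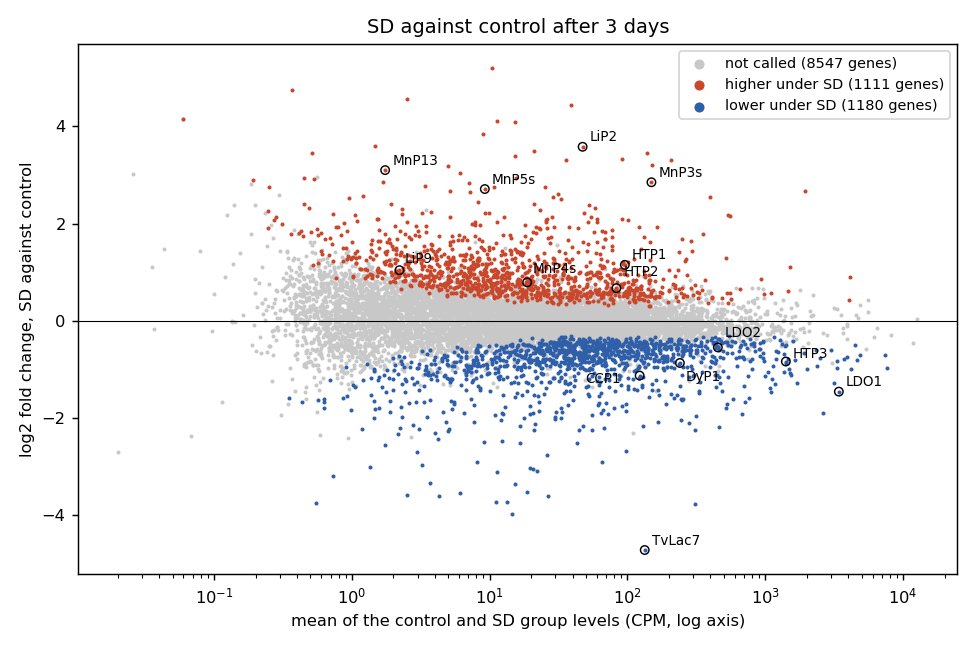
Each point is 1 of 10838 tested genes, with the mean of the control and SD levels (CPM, log axis) against the log2 fold change of SD against control. Red genes (1111) were called higher and blue genes (1180) lower, the circles mark the 14 called genes with a symbol, and TvLac7 is the lowest point at -4.72.

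Calls were spread unevenly over expression levels. Averaged over the 12 libraries at 3 days, 135 genes reached 1000 CPM, and of these 37 (27.4%) fell and 13 (9.63%) rose. Between 1 and 10 CPM the order was the other way, with 6.45% of 3394 genes lower and 10.1% higher. As a description of the same calls, the 1180 genes that fell took 28.3 ± 1.02% of the counts in the controls and 18.2 ± 0.709% under SD (mean ± s.d., the standard deviation, n = 3), and the 1111 that rose took 4.23 ± 0.404% and 8.82 ± 0.806%. In 10 alternatives, which did not include another filter rule, 25 to 43 of the abundant genes were lower and 9 to 15 higher.

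Of the 40 tested genes with a symbol 8 (20%) rose and 6 (15%) fell, against 10.3% and 10.9% of all tested genes, with a median log2 fold change of 0.02. Among the laccases and multicopper oxidases, 1 of 8 genes (12.5%) fell and none rose, a share near that of all tested genes for falls. Their median log2 fold change was -0.41, against -0.01 for all tested genes. This median rests in part on genes whose sign changed between alternatives. TvLac1 ranged from -1.46 to 3.22, TvLac2 from -2.12 to 0.19, TvLac3 from -2.7 to 2.44 and TvLac4 from -0.51 to 0.11. The other members stayed negative. TvLac7 (scaffold 6, 160728 to 162937, 13 exons) had 206, 193 and 371 CPM in control replicates 1, 2 and 3 and 8.37, 6.35 and 14.4 CPM in the SD replicates. The groups lay far apart, with the highest SD library under 15 CPM and the lowest control near 200. The log2 fold change was -4.72 (SE 0.35, adjusted p = 9.04e-06), and it ranged from -5.1 to -4.36 in 12 alternatives. Its neighbour TvLac6, 3.91 kb away on the same strand with 1 model between them, stood at 5.25 to 5.82 CPM in the controls and 4.57 to 5.4 CPM under SD and was not called (-0.17, adjusted p = 0.535).

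None of the other genes of this group was called, and in several of them replicate 2 stood highest in both groups. TvLac3 had 21.3, 216 and 22 CPM in the controls and 13.6, 327 and 12.8 CPM under SD. TvLac1 had 5.23, 37.5 and 4.6 CPM in the controls and 5.65, 127 and 5.6 CPM under SD. In both genes replicates 1 and 3 lay close together in either group and replicate 2 was many-fold higher. TvLac2 showed the same order, with 7.87, 38 and 3.18 CPM against 4.42, 11.6 and 2.98 CPM. TvFet3A, named for the ferroxidase Fet3 that serves iron uptake in yeast, had 24.6, 68.8 and 28.5 CPM in the controls and 9.45, 34.7 and 10.1 CPM under SD. Its log2 fold change was -1.16 (SE 0.59, adjusted p = 0.182), and without SD replicate 2 it was -2.03 (adjusted p = 0.0367). TvLac4, TvLac5 and TvLac6 varied less, and their log2 fold changes lay between -0.64 and -0.14 without a call. The gene TRAVEDRAFT_70408 (scaffold 3, 3382375 to 3383459) followed the pattern of TvLac3, with 17.7, 155 and 8.19 CPM in the controls and 2.93, 255 and 4.52 CPM under SD. It was picked out after its values were seen.

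**Figure D2:**
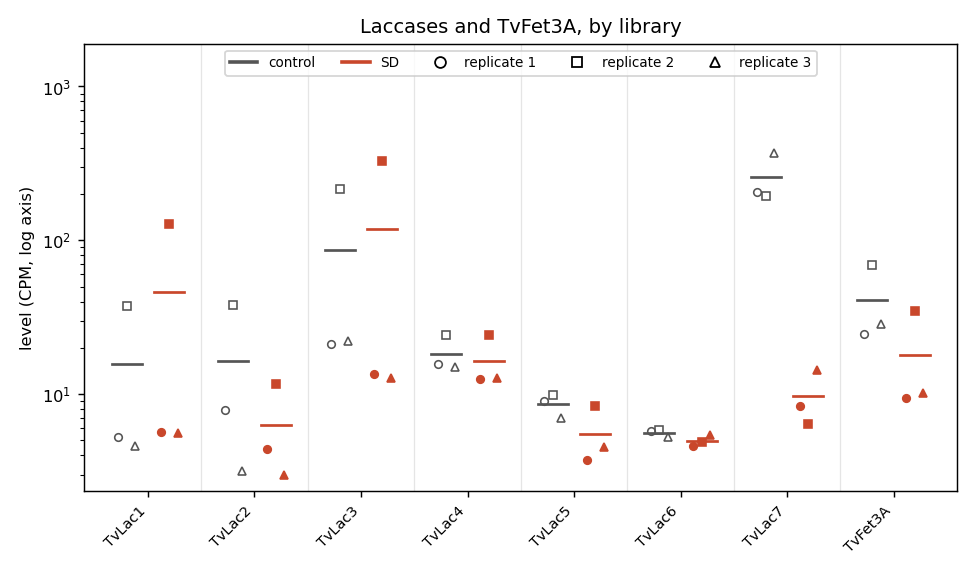
Levels (CPM, log axis) of the 8 laccase and multicopper oxidase genes in the 3 control libraries (open grey) and the 3 SD libraries (red). Symbols give the replicate number and bars the group mean. TvLac7 is separated by group, while the squares of replicate 2 lie highest in both groups for TvLac1 to TvLac5 and TvFet3A.

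Of the 13 manganese peroxidase models 11 were tested, and 4 rose and none fell, 36.4% higher against 10.3% of all tested genes. MnP6s and MnP12s stayed under 0.4 CPM in the control and SD libraries and were not tested. MnP3s (scaffold 10, 2217215 to 2218473) had 21.9, 11.4 and 75.7 CPM in the controls and 319, 187 and 279 CPM under SD. The groups did not overlap although the controls differed among themselves by more than 6-fold. The log2 fold change was 2.85 (SE 0.64, adjusted p = 0.00764). MnP5s (scaffold 2, 2440421 to 2442180) had 2.75, 1.92 and 2.65 CPM in the controls and 16.4, 25.3 and 6.32 CPM under SD (2.71, SE 0.60, adjusted p = 0.00745). MnP13 stood at 0.22, 0.199 and 0.648 CPM, near the level of a few counts, and at 2.62, 4.92 and 1.85 CPM under SD (3.10, SE 0.66, adjusted p = 0.00571). Its SD level remained low beside the 40 ± 21.6 CPM under FW, from which it differed by -3.67 (adjusted p = 0.000198).

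MnP4s had 12.4, 11.3 and 17.3 CPM in the controls and 20.7, 26.9 and 23.5 CPM under SD, a small rise of 0.79 on the log2 scale (SE 0.21, adjusted p = 0.0184). That call was lost without control replicate 1 or 2 or SD replicate 2 (adjusted p 0.0556 to 0.0639). The 7 tested MnP genes without a call had log2 fold changes from -0.67 to 1.14. MnP7s, the highest of these, stood at 4.95 to 5.23 CPM in all controls and at 4.57, 25.1 and 4.27 CPM under SD, so that only replicate 2 was raised (adjusted p = 0.223). MnP10s, at 11.9, 12.4 and 20.6 CPM in the controls and 12.8, 11.9 and 13.1 CPM under SD, overlapped fully between the groups and was lower than under AB (389 ± 250 CPM) by -4.94 (adjusted p = 1.16e-06). Against FW 6 of the 11 tested MnP genes were lower under SD and none higher, with 13.3% and 12.1% of all tested genes called in these directions. Against AB, 4 were higher and 4 lower, where 28.3% and 25.9% of all genes were called.

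Of the 10 lignin peroxidase genes 2 (20%) rose and none fell, against 10.3% and 10.9% of all tested genes, with a median log2 fold change of 0.21. LiP2 (scaffold 2, 2752329 to 2753791) had 7.26, 5.82 and 8.78 CPM in the controls and 32.4, 207 and 22 CPM under SD. All SD libraries lay above all controls, and replicate 2 exceeded the other SD libraries more than 6-fold. The log2 fold change was 3.58 (SE 0.78, adjusted p = 0.00653) and 1.92 without SD replicate 2 (adjusted p = 0.0199). LiP9 rose at a low level, from 1.27, 1.65 and 1.41 CPM to 3.49, 2.66 and 2.78 CPM (1.04, SE 0.29, adjusted p = 0.0205), a call lost without control replicate 1 or 3 or SD replicate 1 (adjusted p 0.0643 to 0.0715). The other 8 LiP genes had mean levels under 7 CPM in both groups and log2 fold changes from -1.09 to 0.65.

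The nearest genes with a symbol on either side of LiP2 did not follow it. LiP1 lies 6.81 kb upstream and LiP12 2.24 kb downstream on the same strand, each with 1 model between, and neither was called, with log2 fold changes of 0.31 and -0.50. MnP2s, 1.95 kb beyond LiP12, had a log2 fold change of -0.17. LiP12 overlaps another model, so its counts are less certain.

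None of the 3 versatile peroxidases was called. VP2 (scaffold 2, 411397 to 413494) had 746, 1086 and 1281 CPM in the controls and 1233, 1443 and 1308 CPM under SD. SD replicates 2 and 3 lay above the control range and SD replicate 1 within it, and the log2 fold change was 0.36 (SE 0.31, adjusted p = 0.451). VP3at stood at 55, 59.8 and 60.1 CPM against 60.7, 31.3 and 46.7 CPM, and VP1 at 1.21, 1.26 and 2.18 CPM against 2.26, 1.18 and 1.34 CPM. All 3 were higher under SD than under AB, against 28.3% of all tested genes. VP2 differed by 8.61 on the log2 scale (adjusted p = 1.05e-08). It stood at 3.39 ± 0.235 CPM under AB, a level called lower than control (-8.26).

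All 3 heme-thiolate peroxidases were called, 2 higher and 1 lower, where 10.3% and 10.9% of all tested genes were. HTP2 and HTP3 lie 1.2 kb apart on the same strand of scaffold 12 with no model between them. HTP3, with 1759, 1757 and 1906 CPM in the controls, fell to 953, 733 and 1348 CPM (log2 fold change -0.84, SE 0.19, adjusted p = 0.00844), a call that held in 12 alternatives. HTP2 went from 63.6, 77.1 and 51.5 CPM to 82.3, 101 and 124 CPM (0.67, SE 0.21, adjusted p = 0.0353). HTP1 on scaffold 3 went from 50.9, 95.3 and 31.8 CPM to 96.2, 202 and 96.5 CPM (1.15, SE 0.37, adjusted p = 0.0438), with replicate 2 highest in both groups. The calls of HTP1 and HTP2 were each lost in 4 of 12 alternatives, with adjusted p up to 0.188 and 0.139.

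DyP1 fell and its relative DyP2, 10.5 kb away on the opposite strand, was not called. DyP1 had 332, 287 and 312 CPM in the controls and 133, 150 and 226 CPM under SD (-0.87, SE 0.20, adjusted p = 0.00942). DyP2 had 46.1, 34.7 and 52.7 CPM and then 89.4, 43.8 and 104 CPM (0.83, SE 0.58, adjusted p = 0.335), with SD replicate 2 inside the control range. CCP1, whose symbol stands for the mitochondrial cytochrome c peroxidase that removes hydrogen peroxide, had 186, 111 and 207 CPM in the controls and 68.8, 62.5 and 99.7 CPM under SD. Its libraries did not overlap (-1.13, SE 0.26, adjusted p = 0.00882). CCP1 stood at 148 ± 39.3 CPM under FW and 198 ± 34 CPM under AB (mean ± s.d., n = 3), above SD in both tests (adjusted p = 0.0181 and 0.000695), and the difference from FW was lost without SD replicate 1 or 2 or FW replicate 3 (adjusted p 0.0551 to 0.0707).

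The long genes LDO1 and LDO2, with 24 and 25 exons, both fell. LDO1 had 5187, 3807 and 6026 CPM in the controls and 1949, 1374 and 2154 CPM under SD, with no overlap (-1.46, SE 0.21, adjusted p = 0.000565). LDO2 had 527, 668 and 420 CPM and then 348, 402 and 351 CPM (-0.55, SE 0.17, adjusted p = 0.0333), with SD replicate 2 just under the lowest control and a call lost in 7 of 12 alternatives (adjusted p up to 0.113).

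**Figure D3:**
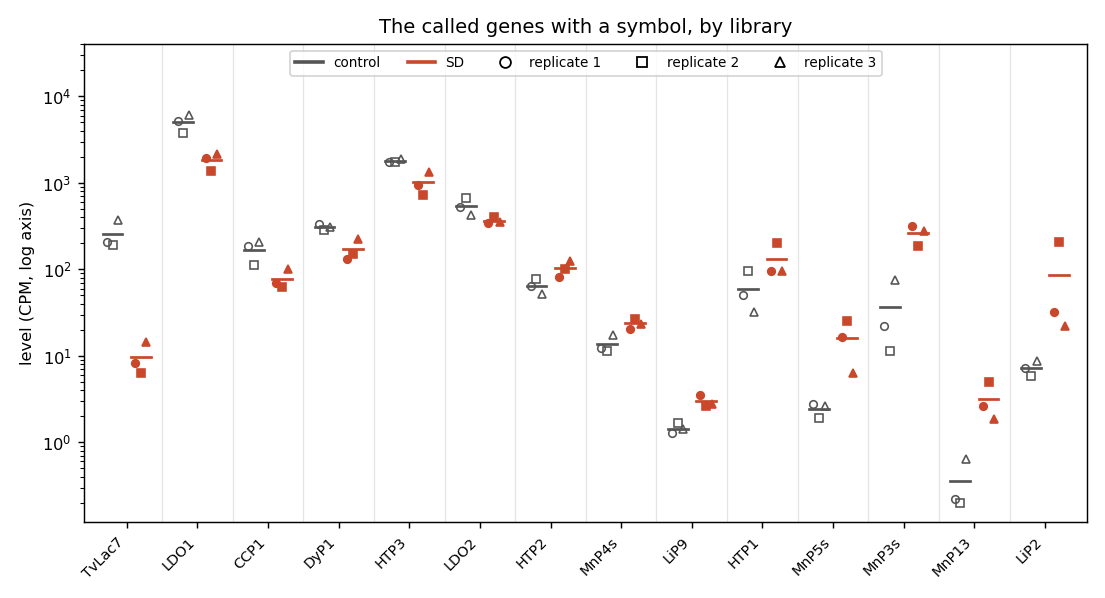
Levels (CPM, log axis) of the 14 called genes with a symbol in the 3 control (open grey) and 3 SD libraries (red), ordered from the largest fall to the largest rise; bars are group means. TvLac7 and LDO1 show wide gaps between the groups, and LiP2 shows the spread among SD libraries (22 to 207 CPM).

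On a per-length scale the order of the abundant genes with a symbol shifted. In the controls HTP3 had 1982 CPM per kilobase of model, LDO1 1425, VP2 758, DyP1 213 and TvLac7 166. Under SD these levels were 1109 for HTP3, 969 for VP2, 520 for LDO1, 116 for DyP1 and 6.27 for TvLac7. VP2 thus stood above LDO1 under SD and below it in the controls, with a call for LDO1 and none for VP2.

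The largest rises were ranked among called genes without overlap and with a mean of at least 10 CPM in the higher group. LiP2 was one of the first 8. The others had no symbol, and most of them were below 5 CPM in the controls. TRAVEDRAFT_30448 and TRAVEDRAFT_50182, also among the 8, are given with the runs of neighbours. TRAVEDRAFT_60089 (scaffold 9, 2095074 to 2095973) went from 0.55, 0.86 and 0.236 CPM to 23.2, 20.7 and 16.4 CPM (log2 fold change 5.20, SE 0.33, adjusted p = 4.08e-06). TRAVEDRAFT_122207 (scaffold 5, 786751 to 788996, 13 exons) went from 3.8, 4.43 and 2.24 CPM to 73.9, 87.2 and 63.6 CPM (4.43, SE 0.31, adjusted p = 5.77e-06). In both genes the SD libraries agree within 1.5-fold, unlike those of LiP2. TRAVEDRAFT_69500 (scaffold 2, 3607519 to 3608758) rose from 1.71, 1.39 and 0.53 CPM to 18.1, 29.5 and 16.1 CPM (4.12, SE 0.33). TRAVEDRAFT_54400 (scaffold 17, 227819 to 229267) rose from 1.21, 3.04 and 0.884 CPM to 18, 44.4 and 24.3 CPM (4.10, SE 0.44). TRAVEDRAFT_29546 (scaffold 7, 1014378 to 1015822) rose from 3.58, 4.1 and 2.48 CPM to 44, 42.3 and 28.5 CPM (3.50, SE 0.24, adjusted p = 5.39e-06). The last of these was far higher still under AB, at 757 ± 102 CPM, and TRAVEDRAFT_69500 was also called higher there, at 103 ± 18 CPM. TRAVEDRAFT_60089 was called higher under FW than under SD, at 39.1 ± 8.91 CPM, and lower under AB, at 10.5 ± 1.87 CPM. TRAVEDRAFT_122207 was called higher under SD than under both other phases. TRAVEDRAFT_54400 was called higher under SD than under AB, without a call against FW. No library overlapped between SD and control for any of these genes, a condition of the rule that named them.

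Ranked in the same way, the largest falls after TvLac7 were in genes without a symbol. TRAVEDRAFT_28331 (scaffold 4, 2715782 to 2716904), the most abundant of them, had 800, 218 and 723 CPM in the controls and 44, 26.3 and 57.7 CPM under SD (-3.77, SE 0.41, adjusted p = 0.000102). TRAVEDRAFT_51581 (scaffold 11, 118611 to 119330, 1 exon) had 21.8, 21.6 and 38.8 CPM in the controls and 1.49, 2.36 and 1.34 CPM (-3.98, SE 0.39). TRAVEDRAFT_127573 (scaffold 8, 138623 to 139407) had 23.8, 45.1 and 33.3 CPM in the controls and 2.41, 2.25 and 4.16 CPM (-3.53, SE 0.30, adjusted p = 1.80e-05). In TRAVEDRAFT_28331 control replicate 2 was the low library, and it still lay more than 3-fold above the highest SD library. The genes TRAVEDRAFT_52959, TRAVEDRAFT_134403, TRAVEDRAFT_28848 and TRAVEDRAFT_50828 had log2 fold changes of -3.74, -3.73, -3.60 and -3.55, the first 3 with control replicate 2 highest. Their mean levels under SD lay between 0.959 and 4.01 CPM.

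Some of the most abundant transcripts of the pellets changed by less. TRAVEDRAFT_68340 (scaffold 1, 2552197 to 2554290) had 10269, 7693 and 12541 CPM in the controls and 5700, 4231 and 5545 CPM under SD (-0.98, SE 0.18, adjusted p = 0.00218). TRAVEDRAFT_32245 (scaffold 16, 126111 to 127991) went down from 9151 ± 1716 in the controls to 5586 ± 640 CPM (mean ± s.d., n = 3; -0.71, SE 0.15, adjusted p = 0.00582). TRAVEDRAFT_65852 (scaffold 8, 2331745 to 2334257) had 5918 ± 542 CPM in the controls and 3399 ± 559 CPM under SD (-0.80, SE 0.18, adjusted p = 0.00755). TRAVEDRAFT_65852 stood lower still under the other phases, at 899 ± 207 CPM under FW and 9.58 ± 0.862 CPM under AB, both lower than under SD (adjusted p = 2.79e-05 and 1.84e-10). TRAVEDRAFT_138905, which overlaps another model, fell by 0.70 and TRAVEDRAFT_116268 by 1.00 on the log2 scale (adjusted p = 0.00551 and 0.0270), and the latter call was lost in 5 of 12 alternatives (adjusted p up to 0.108).

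Of the 5 genes that rose with the highest levels under SD, TRAVEDRAFT_59617 (scaffold 8, 1219192 to 1219987, 3 exons) had the largest fold change, from 501, 532 and 524 CPM to 2715, 5460 and 1837 CPM. The controls agreed closely and every SD library was at least 3-fold above them (log2 fold change 2.68, SE 0.39, adjusted p = 0.000637; 2.16 without SD replicate 2, adjusted p = 0.00115). TRAVEDRAFT_136901 (scaffold 16, 60243 to 61263) rose from 2370, 3301 and 3024 CPM to 6948, 4924 and 4326 CPM (0.90, SE 0.21, adjusted p = 0.0106). TRAVEDRAFT_132042 (scaffold 11, 789875 to 791142) rose from 932, 1155 and 782 CPM to 1738, 1548 and 2855 CPM (1.10, SE 0.29, adjusted p = 0.0178), a call lost without control replicate 1 or 3 or SD replicate 3 (adjusted p 0.0561 to 0.0752). Under FW and AB that gene stood at 264 ± 56.9 and 72.5 ± 29.6 CPM, lower than under SD by both tests (adjusted p = 4.83e-05 and 1.36e-07). TRAVEDRAFT_25375 and TRAVEDRAFT_175079 rose by 0.43 and 0.56, with calls lost in 6 and 4 of 12 alternatives (adjusted p up to 0.120 and 0.112).

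Changes from nothing to something were rare and small. Of models without a count in the controls 122 had counts under SD, with a median of 2 counts over the 3 libraries and a maximum of 28. The reverse held for 95 models, with a median of 1 and a maximum of 26 counts. Of the former 3 models passed the filter and 1 was called, and of the latter 1 passed and none was called.

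To find where the SD response differs from those to the other phases, SD was tested directly against FW and AB. Against FW 2757 genes (25.4%) were called, 1313 higher and 1444 lower under SD, and against AB 5871 (54.2%), 3063 higher and 2808 lower. Of the 1111 genes that rose over control, 292 were lower under SD than under FW and 125 higher, and 694 had no call. Against AB these counts were 423, 282 and 406. Of the 1180 genes that fell, 240 were higher under SD than under FW, 116 lower and 824 not called, and against AB 531, 180 and 469. The tests share the SD libraries, so that these counts describe the same libraries from several sides.

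Genes distinct to SD differed from control, FW and AB in 1 direction, and 86 were higher (0.794% of tested genes) and 50 lower (0.461%). Their median log2 fold changes against control were 1.00 and -0.78, and CCP1 was the only one with a symbol. Some of them also changed against control under the other phases. Of the 86, 11 were called higher than control under FW and 7 lower, and under AB 4 higher and 39 lower. Of the 50, 7 were called lower than control under FW and 6 higher, and under AB 5 lower and 12 higher. TRAVEDRAFT_122207, named above among the largest rises, led the higher genes, at 33.4 ± 4.89 CPM under FW and 1.00 ± 0.555 CPM under AB against 74.9 ± 11.8 CPM under SD (adjusted p = 0.00626 and 2.07e-08). TRAVEDRAFT_43161 (scaffold 2, 1396980 to 1399904) rose from 1.1, 1.52 and 1.3 CPM to 10.9, 16.5 and 5.14 CPM (3.05, SE 0.41, adjusted p = 0.00039). TRAVEDRAFT_128133 (scaffold 8, 85527 to 86353) was steadier, with 5.34, 4.9 and 5.13 CPM in the controls and 13.3, 16.5 and 14.1 CPM under SD (1.51, SE 0.16, adjusted p = 7.76e-05). Under AB it stood at 1.45 ± 0.164 CPM. TRAVEDRAFT_119464 and TRAVEDRAFT_150723 had log2 fold changes of 1.60 and 1.44, but not all of their calls held. The former was also called higher than control under FW (0.98) and AB (1.09). TRAVEDRAFT_119464 lost its difference from FW in 4 alternatives (adjusted p up to 0.174) and from AB in 4 (up to 0.221). TRAVEDRAFT_150723 lost its call against control in 4 alternatives (adjusted p up to 0.0959) and its difference from FW in 3 (up to 0.0784).

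The genes that were lowest under SD included abundant ones. TRAVEDRAFT_144169 (scaffold 3, 2336688 to 2338828) had 4130, 4838 and 3448 CPM in the controls and 1060, 1133 and 1132 CPM under SD, 3 libraries within 10% of each other (-1.90, SE 0.18, adjusted p = 5.46e-05). It stood at 1771 ± 331 CPM under FW (adjusted p = 0.0148, and 0.0511 without FW replicate 2) and 2557 ± 511 CPM under AB (adjusted p = 9.63e-05). TRAVEDRAFT_175547 (scaffold 14, 894754 to 897821) had 316, 475 and 344 CPM and then 122, 126 and 116 CPM (-1.64, SE 0.21, adjusted p = 0.000317), against 241 ± 77.1 CPM under FW and 257 ± 22.3 CPM under AB. TRAVEDRAFT_29586 (scaffold 7, 1190806 to 1192968) dropped from 805 ± 128 to 234 ± 43.5 CPM (-1.79, SE 0.16), TRAVEDRAFT_27714 from 50.9 ± 5.75 to 14.6 ± 1.06 CPM (-1.80, SE 0.15) and TRAVEDRAFT_49191 from 27.2 ± 1.77 to 6.09 ± 1.11 CPM (-2.16, SE 0.17). For these 3 genes the falls against control held in all 12 alternatives, while the difference from FW or AB was lost in 4 or more (adjusted p up to 0.196). These 3 genes, TRAVEDRAFT_144169 and TRAVEDRAFT_175547 were all also called lower than control under FW and AB. The log2 fold changes ranged from -1.54 to -0.65 under FW and from -1.70 to -0.56 under AB.

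**Figure D4:**
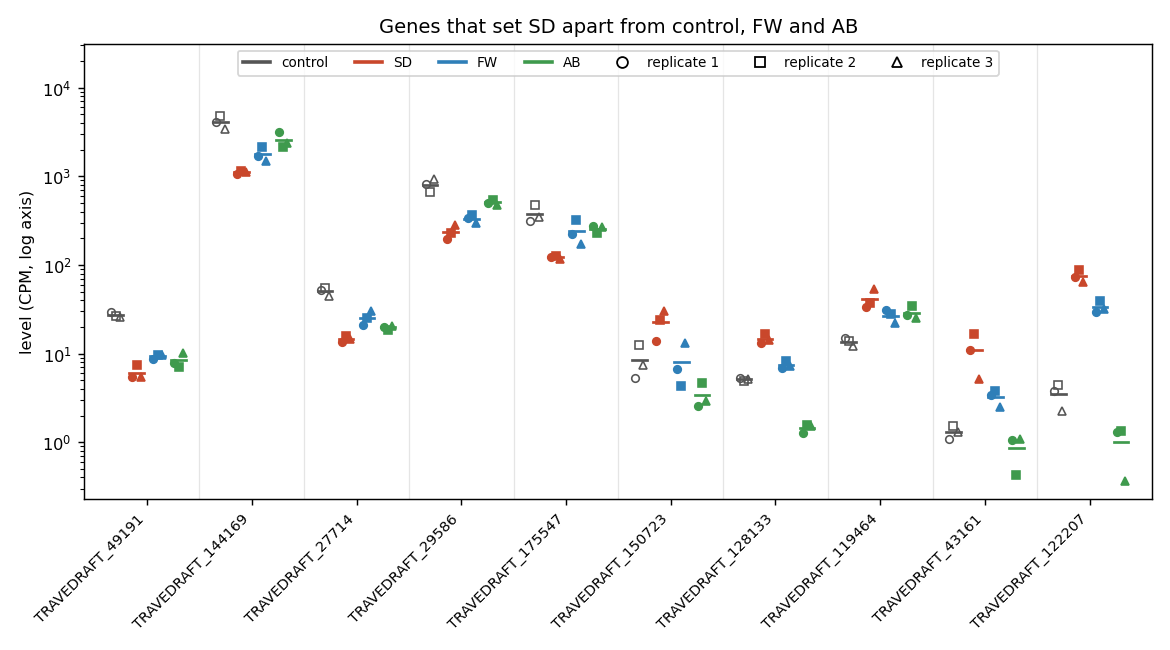
Levels (CPM, log axis) of the 5 largest falls and 5 largest rises among genes distinct to SD with a mean of at least 10 CPM in the higher of the SD and control groups, in the 3 libraries each of control (open grey), SD (red), FW (blue) and AB (green); bars are group means. TRAVEDRAFT_144169 and TRAVEDRAFT_175547 are lowest under SD with closely grouped libraries, and TRAVEDRAFT_122207 is highest under SD.

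Called genes also lay side by side. There were 11 runs of at least 4 tested neighbours called in the same direction, 4 of them higher and 7 lower, holding 50 genes (0.461% of tested genes). One was on scaffold 9 (811066 to 820055, 8.99 kb), where 5 consecutive genes rose and all 5 remained called in each of 10 alternatives. TRAVEDRAFT_30442 had 41.7, 38.5 and 35 CPM in the controls and 263, 627 and 245 CPM under SD (3.30, SE 0.31, adjusted p = 5.02e-05). TRAVEDRAFT_30445 had 291, 108 and 210 CPM and then 923, 1092 and 685 CPM (2.15, SE 0.28, adjusted p = 0.000376). TRAVEDRAFT_50182 had 25.7, 32.2 and 12 CPM and then 109, 535 and 121 CPM (3.45, SE 0.56, adjusted p = 0.00122; 2.33 without SD replicate 2, adjusted p = 0.000854). These 3 models are short, at 475, 530 and 333 bases, with 3 exons each. Between them TRAVEDRAFT_129010 rose by 1.54 and TRAVEDRAFT_73514 by 1.10, both from under 14 CPM. The run ended at TRAVEDRAFT_50184, which was not called and was high in replicate 2 of both groups, and the next model, TRAVEDRAFT_30448, rose from 1.1, 1.26 and 1.12 CPM to 9.71, 30.1 and 10.4 CPM (3.85, SE 0.51, adjusted p = 0.000385). All 5 genes of the run were called higher under AB than under SD, a call that TRAVEDRAFT_50182 lost in 4 alternatives (adjusted p 0.065 to 0.105), and for TRAVEDRAFT_30442 they reached 3022 ± 519 CPM.

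The longest run, 7 tested genes on scaffold 8 (1563149 to 1596694, 33.5 kb), rose by 0.54 to 1.70, led by TRAVEDRAFT_73179, which had 11.2, 13.4 and 13 CPM in the controls and 52.2, 33.1 and 36.5 CPM under SD (SE 0.20, adjusted p = 0.000182). The other 6 rose by 0.54 to 1.09, and only 3 of the 7 remained called in the weakest of 10 alternatives, although all 7 kept their sign. Of the 9 models in that span 2 were not tested. On scaffold 1 (2731964 to 2745214) 5 neighbours fell by 0.49 to 1.13 on the log2 scale, among them TRAVEDRAFT_68390, which had 1105, 869 and 929 CPM in the controls and 713, 561 and 755 CPM under SD (-0.52, SE 0.15, adjusted p = 0.0275). In the weakest alternative 2 of these 5 remained called, again with the same sign for all. A further run of 5 genes fell on scaffold 8 (138623 to 154532, 15.9 kb), with log2 fold changes from -3.53 to -0.69 and a median of -1.28. It begins with TRAVEDRAFT_127573, given among the largest falls, and 4 or 5 of its members remained called in 10 alternatives. None of the members of these 4 runs overlaps another model.

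**Figure D5:**
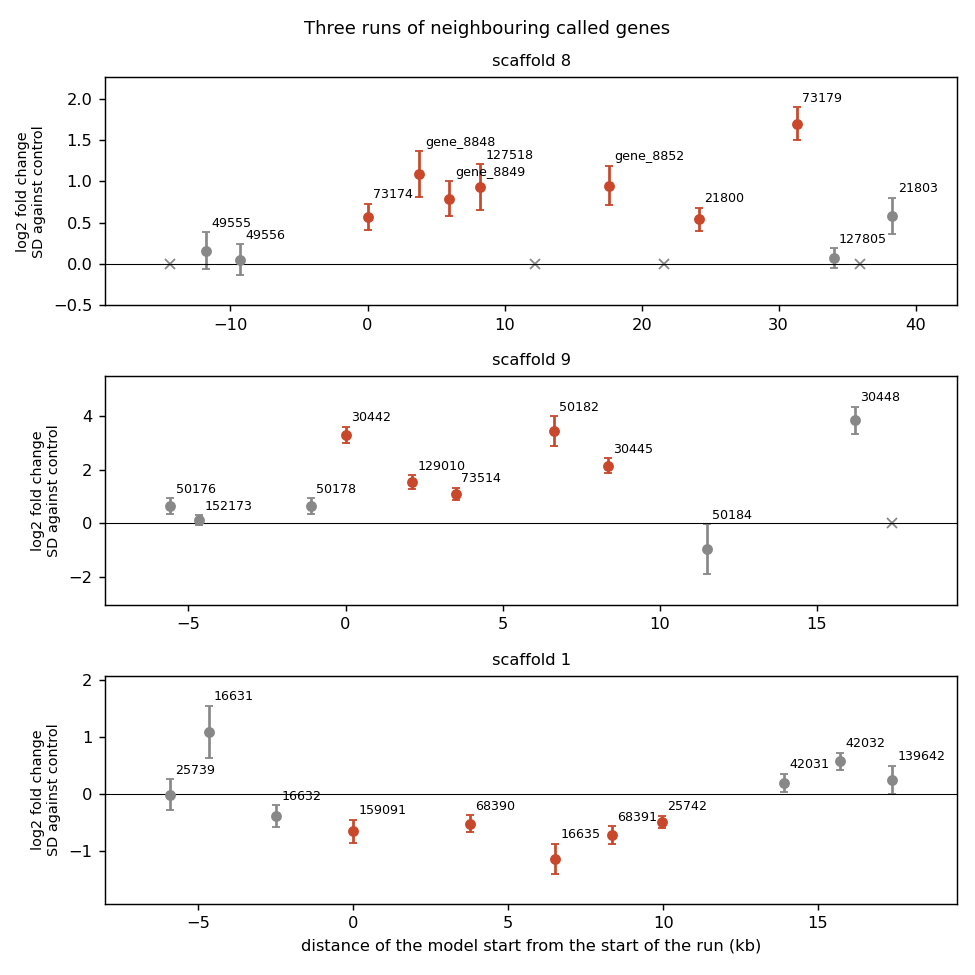
Log2 fold change of SD against control (points, with bars of 1 SE) by distance of the model start from the start of the run (kb) for the 3 runs described gene by gene and 3 models on either side. Red points are members of the run, grey points other tested models and crosses models that were not tested, with numbers short for TRAVEDRAFT locus tags. The scaffold 9 run has 5 members between 1.10 and 3.45, and TRAVEDRAFT_30448 beyond its end lies at 3.85.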

How the data were processed

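Pellet RNA was purified with TRIzol and a column, and 200 ng went into each mRNA library, per the labels' protocols. The deposited values are raw counts of reads for each gene model. The submitters' processing notes name HISAT2 and featureCounts. The sources used here do not give versions, genome build, strand setting or how multi-mapping reads were handled, so near-identical family members and the 280 overlapping models could share reads.

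Model names came from matching both ends, exactly and uniquely, with RefSeq genes of Trametes versicolor v1.0 (14214 of 14296 matched). Coordinates are those of the deposited files. The lists planned on product descriptions, protein signatures and promoter motifs could not be formed, and only lists by symbol were used. The genes described, the lists and the rules were chosen with earlier results of these data known.

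One edgeR 4.0.16 model (R 4.3.3) of 4 group means was fitted to the 12 libraries at 3 days, with TMM scaling and the default filter by group (residual degrees of freedom 8, biological coefficient of variation 0.188). Contrasts were tested by quasi-likelihood, and p-values were adjusted by Benjamini-Hochberg over 10838 genes and called at 0.05. All adjusted p-values come from this test, or in an alternative from the same test or DESeq2 1.42.0. Each SE is the absolute log2 fold change divided by the square root of F and is approximate. Titles name the samples biological replicates without naming separate cultures, so the p-values reflect only their spread, which may in part be technical. The fit was also run on counts simulated from its own model, which cannot show how it treats libraries that stand apart. The outcome of that run is not used here. CPM use TMM-scaled sizes, and the gene lengths are those of the deposited table.

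Named genes were called, reached a mean of 10 CPM in the higher group and did not overlap between SD and control. They are the 8 largest rises and falls, the 5 most abundant in each direction, the 5 largest rises and falls distinct to SD, and up to 3 called genes of each list. Every called gene with a symbol and the members of 3 runs, taken by number of genes, were added. Of 3 runs tied at 5 genes, the 2 of shorter span were taken, a tie rule that was not part of the written rule. Other genes were named after their values were seen. The 7-day libraries were not used here.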

Additional observations from a re-analysis of the deposited data

Results flagged for a closer look

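For 11 of the 40 tested genes with a symbol the response to SD differed by direct test from the responses to both other phases. Of these 11, 6 were also called against control. Among all tested genes 25.4% were called against FW and 54.2% against AB, and the share called against both was not computed. TvLac7 was lower under SD than under FW (log2 fold change -2.96, adjusted p = 7.19e-05) and higher than under AB (2.41, adjusted p = 0.000132), with SD, FW and AB means of 9.7, 75.8 and 1.82 CPM. CCP1 was lower than under FW (-0.94) and AB (-1.37). MnP4s was lower than under FW (-1.91) and higher than under AB (3.05). HTP3 (-0.67 and 4.81), LDO1 (-0.59 and 3.00) and LDO2 (-0.58 and 4.28) were likewise lower than under FW and higher than under AB. The AB group itself was called lower than control in TvLac7 (-7.13), MnP4s (-2.26), HTP3 (-5.64), LDO1 (-4.45) and LDO2 (-4.83). Of the 5 genes without a call against control, VP2 was lower than under FW (-1.06) and higher than under AB (8.61). For VP2 the AB group was called lower than control by -8.26. MnP1s (-1.38 and -4.25), MnP8s (-0.91 and -1.02) and MnP9s (-1.33 and -1.40) were lower than under both, and LiP8 was higher than under both (0.83 and 1.52). Levels were low for MnP9s, with means of 0.407 CPM in the controls and 0.496 CPM under SD. LiP8 had means of 3.21 and 2.65 CPM in these groups. The differences of HTP3, LDO1, LDO2, CCP1, VP2 and LiP8 from FW were each lost in at least 3 alternatives, and that of MnP1s in 1. No explanation was tested.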

How the results depend on the processing

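Results were recomputed with RLE size factors, with DESeq2, without the filter, at a mean of 10 CPM, at a 2-fold minimum, with a replicate block, with the compared groups alone, and without each library in turn. SD against control gave 1735 to 2645 called genes under another scaling, test or filter, 1551 with both groups alone and 819 at 2-fold, against 2291. Leaving out 1 library gave 1361 to 2379. Against FW the 2-fold count was 1043, and leaving out 1 library gave 1865 to 2325. Against AB these were 3071 and 5132 to 5578. Genes distinct to SD numbered 35 at 2-fold and 82 (without control replicate 3) to 160 when 1 library was left out, with 90 without SD replicate 3. The cause of these losses was not tested. Scaling by RLE moved the median fold change by 0.010, and the 10 CPM filter moved it by 0.062. The balance of rises and falls against control depended on the setting. RLE gave 1136 higher and 1119 lower, and DESeq2 1335 and 1310. The 10 CPM filter gave 941 and 794, and both groups alone 805 and 746. Falls stayed more numerous without the filter (1093 and 1106), with the replicate block (1124 and 1189) and without any control library. Without any SD library rises were more numerous. Whether the replicate numbers pair the samples stayed unsettled. Deviations of control and SD libraries correlated at -0.0807, 0.451 and 0.234 for replicates 1, 2 and 3. Between unlike numbers these correlations ranged from -0.485 to 0.404. The replicate block gave 2313 called genes. Without SD replicate 2 the log2 fold change of TRAVEDRAFT_50182 against FW turned from 0.15 to -1.02 (adjusted p = 0.0427), and that of TvLac1 against AB from 2.86 to -0.17 (adjusted p = 0.876). With 1 library left out they ranged from -1.02 to 0.48 and from -0.17 to 3.37. Of the gene-level values against control 970 stayed on their side of the threshold, 71 lost a call and 1 gained one. A count of 0 in a library allows up to 3 counts, for counting error only.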
